A study of Mus musculus with 12 samples.

Results

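The genes described here are the receptors of the signalling lymphocytic activation molecule (SLAM) family and their cytoplasmic adaptor in tumour-specific CD8 T cells of mice given checkpoint blockade. They were taken by name: Slamf1, Slamf6, Slamf7, Ly9, Cd48 and Cd84 encode receptors, and Sh2d1a encodes the adaptor SAP. These 7 genes are among 48709 listed in each table, and all 7 are among the 17833 genes that were tested in each of the 3 comparisons. C57BL/6 wild-type mice (post natal day 91) were injected with TRAMP-C2, a mouse prostate tumour line. The arms were isotype antibody, anti-CTLA-4 alone, anti-PD-1 DANA alone and both antibodies together (Combo). The sample labels give treatment on days 3, 6 and 9 after tumour injection, whereas the series text gives days 3, 6 and 8. Draining lymph nodes were taken on day 28, which the sample labels count after treatment but the series text after the tumour was injected.

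Live CD45+CD3+CD8+ cells that were Spas-1+ and Spas-2- were sorted, Spas-1 being an antigen of this tumour. The 5 mice of an arm were pooled and the pool was split into 3 libraries, so every arm has 3 libraries from 1 pool. P-values therefore measure the spread between splits of a pool, and an effect of treatment and a difference between pools cannot be told apart. Each library was made from 0.25 ng of RNA with 21 cycles of pre-amplification. In bulk RNA, fewer cells of a type and less RNA per cell cannot be told apart. The files hold the authors' comparisons of each treatment with isotype and no value per library, and the 3 comparisons share the same isotype libraries.

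SLAM family receptors are surface proteins of blood cells, and most bind a second copy of themselves on a neighbouring cell. Cd48 differs in being held in the membrane by a lipid anchor, and it is a ligand of Cd244 and of Cd2. The cytoplasmic tails of Slamf1, Slamf6, Slamf7, Ly9 and Cd84 carry a tyrosine motif that, once phosphorylated, binds SAP or a related adaptor. SAP recruits the kinase Fyn, and without SAP the same tyrosines can bind phosphatases such as SHP-1. In CD8 T cells, Slamf6 (Ly108) is widely used as a surface marker of stem-like, Tcf7-expressing cells.

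The members differ in this tail motif, which is why its coding sequence is shown. The motif is threonine, any residue, tyrosine, any 2 residues, then valine or isoleucine. It was searched in the translation of 1 GENCODE M21 transcript per gene, on the coding strand alone. A site is present in 7.85% of 21901 mouse proteins, and 2 or more sites are present in 0.598%. Slamf1, Slamf6, Ly9 and Cd84 have 2 sites each and Slamf7 has 1. The 1 site of Cd48, at residue 107 of 240, lies in its extracellular part and is not shown. Each run below is 30 bases of GRCm38 in 5′ to 3′ direction on the coding strand, with the tyrosine codon in capitals. A match to the motif is a description of the sequence and not evidence of binding in these cells.
Slamf6, tyrosine 295 of 351 residues, chr1:171939431-171939460, plus strand: gggaacactgtgTATgcacaagtcactcgt
Slamf6, tyrosine 319, chr1:171941658-171941687, plus strand: tccatgacaattTACtccatagttaatcat
Slamf1, tyrosine 288 of 343 residues, chr1:171792333-171792362, plus strand: agccttactattTATgcccaagtacagaaa
Slamf1, tyrosine 335, chr1:171799582-171799611, plus strand: cccaccacagttTATgccagtgtgacactg
Cd84, tyrosine 265 of 329 residues, chr1:171884599-171884628, plus strand: aagaaaacagtaTATgctgtagtttcaaga
Cd84, tyrosine 300, chr1:171885595-171885624, plus strand: gtgaccaccattTATtcctcagtgcagctt
Ly9, tyrosine 587 of 654 residues, chr1:171593906-171593935, minus strand: gcaatcactccaTATgataaagtggatggg
Ly9, tyrosine 625, chr1:171593432-171593461, minus strand: tcaaatacaatcTACtgctctgtgcagaag
Slamf7, tyrosine 302 of 335 residues, chr1:171636321-171636350, minus strand: ccaaacacatttTATtccactgtgcagatc
In 7 of these sites the tyrosine codon is TAT and in the other two, the second site of Slamf6 and of Ly9, it is TAC.

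Of the 7 genes, 1 was called in 1 comparison: Slamf6 was 10.6-fold lower in Combo than in isotype in the authors' deposited table. No member was called in the anti-CTLA-4 or the anti-PD-1 DANA comparison. A gene is called here where the deposited false discovery rate (Benjamini-Hochberg over all listed genes) is under 0.05. That threshold called 4.23% of the tested genes with anti-CTLA-4 (2.74% higher and 1.49% lower). It called 3.75% with anti-PD-1 DANA (2.43% higher and 1.32% lower) and 7.53% with Combo (3.94% higher and 3.59% lower). The 1 call among 21 member values is thus near the shares over all genes, and it is not read as a result about the family. The log2 fold change was below 0 for 5 of 7 members with anti-CTLA-4, 6 under anti-PD-1 DANA and 6 with Combo. The members' median log2 fold changes were -1.04, -1.0 and -1.22 in that order, beside -0.62, -0.45 and -0.42 over all tested genes.

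Part of that sign follows the scaling. The RPKM values in the same tables (reads per kilobase of exon, relative to the library's total) are scaled to library size, and library-size scaling raises every log2 fold change by 0.94 with anti-CTLA-4, by 0.82 under anti-PD-1 DANA and by 0.11 with Combo. On that scale the members' medians were -0.10, -0.18 and -1.11, and 3, 3 and 2 of the 7 members were above 0. The fold changes below are on the authors' scale unless library size is named. Errors are standard errors (SE) implied by the deposited p-values. Calls named on library size keep these errors, and the share of all tested genes called on that scale is not given here.

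**Figure D1:**
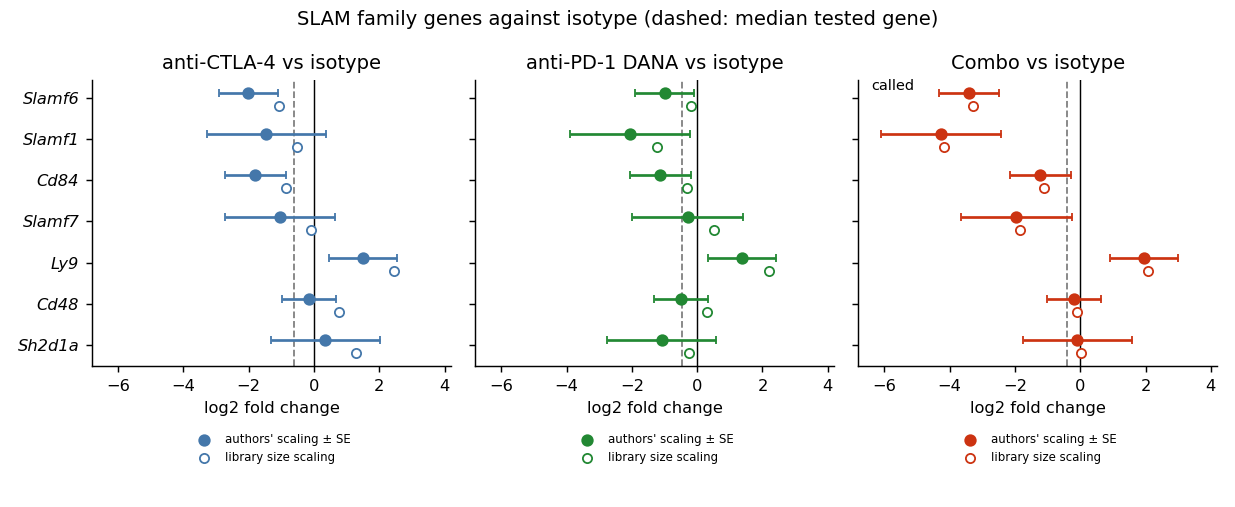
Log2 fold change of each member against isotype in the 3 deposited tables (x axis), on the authors' scale with its implied SE (filled) and on library size (open). The dashed line is the median of all tested genes; Slamf6 with Combo is the called value, and Ly9 alone is above 0 in all 3 comparisons on the authors' scale.

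Slamf6 (ENSMUSG00000015314, chr1:171917515-171953170, plus strand) had a mean of 16.1 RPKM in isotype, which was the larger mean in all 3 of the authors' deposited tables. Its log2 fold change in the authors' deposited Combo table was -3.40 ± 0.91 (p = 0.000183, false discovery rate 0.0134). On library size, with the authors' errors, it was -3.30 (adjusted p = 0.0177). It lay at -2.02 ± 0.91 with anti-CTLA-4 (p = 0.0267, false discovery rate 0.395) and at -1.0 ± 0.91 under anti-PD-1 DANA (false discovery rate 1.0) in the authors' deposited tables. On library size these values were -1.07 and -0.18. All 3 treated arms had a lower estimate than isotype on both scales, and the Combo value alone passed the threshold. Centred on genes of like level, the anti-PD-1 DANA value turned to 0.10. The Combo call was lost with the authors' Bonferroni correction (p = 1), and when each gene was centred on genes of like level the value was -2.43 (adjusted p = 0.171). The isotype mean of Slamf6 could be split into whole reads in 12 ways, so its values per library are not known.

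Slamf1 (ENSMUSG00000015316, chr1:171767127-171801184, plus strand), the receptor also called CD150, had 3.13 RPKM in isotype, again the larger mean in all 3 of the authors' deposited tables. Whole reads per library, solved from that mean and the recovered library sizes, were 1381, 3 and 2 in the 3 isotype libraries. In RPKM these are 9.36, 0.0199 and 0.00988, so 99.7% of the isotype level came from 1 library and the other two were close to 0. A solution of this kind would arise by chance with a probability of 0.0609 if the exon length were wrong. In the authors' deposited tables the log2 fold changes were -1.46 ± 1.83 with anti-CTLA-4, -2.05 ± 1.83 under anti-PD-1 DANA and -4.28 ± 1.84 with Combo (p = 0.0199, false discovery rate 0.305). The Combo value is the most negative of all 21 member values, and it is not a call: at this error Slamf1 needed a log2 change of 5.88 to be called in the Combo table.

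Such dependence on 1 library is not particular to Slamf1 and was common among genes chosen in a like way. These were 181 other genes with an isotype mean of 1 to 5 RPKM, where isotype had the larger mean in more than 1 comparison. This choice favours means raised by 1 isotype library, so the shares need not hold for all genes at this level. Of the 181 genes, 145 (80.1%) gave whole reads with their exon length, against 3 (1.66%) when 1 base was added to the length. Of the 144 with 1 solution, 126 (87.5%) took at least 80% of their mean from 1 isotype library.

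Cd84 (ENSMUSG00000038147, chr1:171839697-171890718, plus strand), a receptor that binds itself, had 16.5 RPKM in isotype and was lower in each treated arm by estimate. The log2 fold changes in the authors' deposited tables were -1.79 ± 0.93 with anti-CTLA-4 (p = 0.0550, false discovery rate 0.635), -1.13 ± 0.93 under anti-PD-1 DANA and -1.22 ± 0.93 with Combo. None passed the threshold, and on library size they were -0.85, -0.31 and -1.11. Its level in isotype was close to that of Slamf6 and its error was alike. With Combo the estimate for Cd84 was less negative than that for Slamf6, a difference between genes that was not tested.

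Slamf7 (ENSMUSG00000038179, chr1:171632403-171653035, minus strand), a receptor known from natural killer and plasma cells, had 3.77 RPKM in isotype and 4.83 RPKM with anti-PD-1 DANA. The 3 anti-PD-1 DANA libraries held 915, 233 and 633 reads, or 8.25, 1.90 and 4.33 RPKM, so no single library carried the mean. For isotype 2 solutions remain, 3, 1262 and 4 reads or 48, 591 and 842 reads, and they could not be told apart. The authors' deposited tables gave log2 fold changes of -1.04 ± 1.69 with anti-CTLA-4, -0.29 ± 1.69 under anti-PD-1 DANA and -1.95 ± 1.69 with Combo, none of them called. With anti-PD-1 DANA the sign turned on library size, to 0.52. Slamf7 shares 423 exon bases (9.24% of its exon length) with Gm37787 on the other strand, and these libraries do not keep strand.

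Ly9 (ENSMUSG00000004707, chr1:171588624-171607410, minus strand), also called CD229, was the 1 member with a positive estimate in all 3 of the authors' deposited tables. The larger means were 23.1 RPKM with anti-CTLA-4, 19.4 RPKM under anti-PD-1 DANA and 17.6 RPKM in the Combo table, which bounds the isotype mean at 17.6 RPKM. The authors' deposited log2 fold changes were 1.50 ± 1.04 (p = 0.149, false discovery rate 1.0), 1.37 ± 1.04 and 1.97 ± 1.04 (p = 0.0590, false discovery rate 0.661) in that order. None was called, and a call needed 3.33 in the Combo table. On library size the values were 2.45, 2.19 and 2.07, also not called, and the sign held in every scaling tried. The anti-CTLA-4 libraries held 8.17, 30.9 and 30.1 RPKM (398, 1952 and 2942 reads), so 1 library was lower than the others. The anti-PD-1 DANA libraries were even, at 17.0, 20.5 and 20.8 RPKM (1363, 1818 and 2194 reads). For the Combo table the solution was 3.11, 24.6 and 25.2 RPKM, but 0.860 solutions were expected there by chance, so it has little support. For the arms given 1 antibody the expected numbers were 0.235 and 0.414. Ly9 lies within the span of Cd244 on the other strand and shares 0 exon bases with it.

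**Figure D2:**
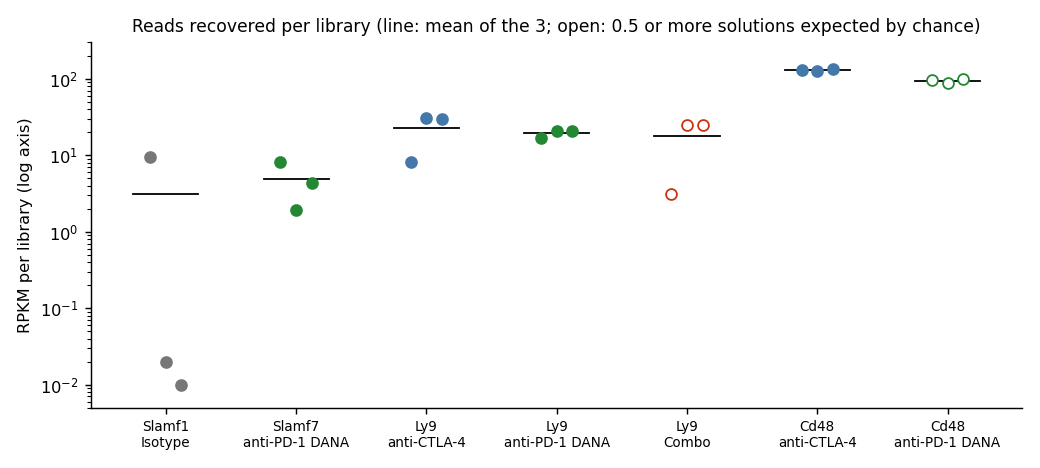
RPKM in each library (log y axis) for the member and arm pairs whose group mean had 1 solution in whole reads; points are libraries in no order of replicate, lines are the means of 3 libraries, and open points are pairs where 0.5 or more solutions were expected by chance. The isotype level of Slamf1 comes from 1 library, whereas the 3 anti-CTLA-4 libraries of Cd48 lie between 128 and 134 RPKM.

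Cd48 (ENSMUSG00000015355, chr1:171682009-171705258, plus strand), the lipid-anchored ligand, was the most abundant member per length. Its larger means in the authors' deposited tables were 131 RPKM with anti-CTLA-4, 95.0 RPKM under anti-PD-1 DANA and 77.6 RPKM in the Combo table, where Combo and isotype could not be told apart as its source. The anti-CTLA-4 libraries held 133, 128 and 134 RPKM (2321, 2912 and 4701 reads). The anti-PD-1 DANA libraries held 95.3, 88.7 and 101 RPKM (2745, 2823 and 3838 reads). The difference of the log2 fold changes between these arms was 0.34 ± 0.83, less than its error, and it was not called. Chance alone was expected to give 0.395 and 0.508 solutions for these means.

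The sign for Cd48 depends on the scale. In the authors' deposited tables its log2 fold changes were -0.17 ± 0.83, -0.50 ± 0.83 and -0.20 ± 0.83 in the same order of treatments, all far from a call. In RPKM the anti-CTLA-4 mean was at least 1.69-fold, and the anti-PD-1 DANA mean at least 1.22-fold, that of isotype. On library size the log2 values were 0.78, 0.31 and -0.10. No direction is given for Cd48.

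**Figure D3:**
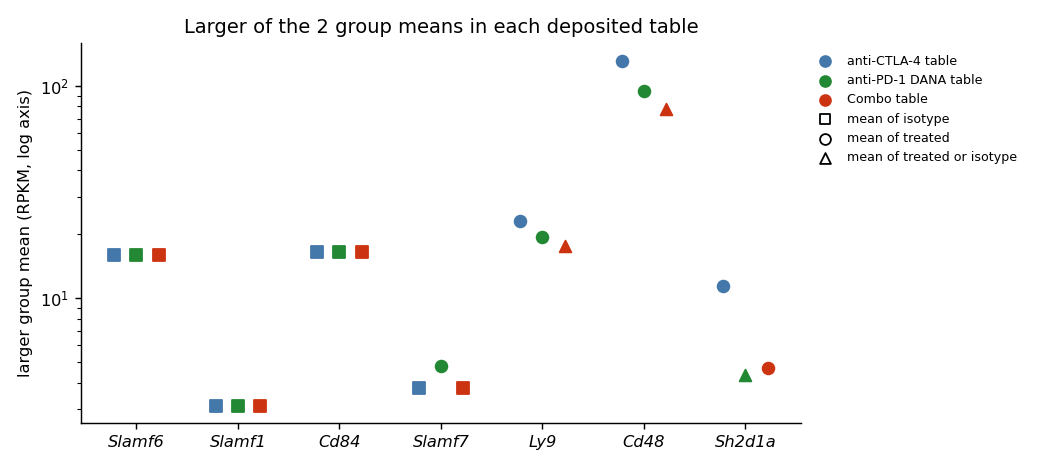
Larger of the treated and isotype mean of each member in each deposited table (RPKM, log y axis), with the symbol showing whose mean it is. Isotype is the larger in all 3 tables for Slamf6, Slamf1 and Cd84, and Cd48 stands highest at 77.6 to 131 RPKM.

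Sh2d1a (ENSMUSG00000005696, chrX:42502453-42529330, plus strand), which encodes SAP, had 11.4 RPKM with anti-CTLA-4 and 4.68 RPKM with Combo. The isotype mean was at most 4.37 RPKM, so in RPKM, which is scaled to library size, the anti-CTLA-4 mean was at least 2.61-fold that of isotype. The fitted log2 value on library size was 1.29, and the values that follow are on the authors' scale. The log2 fold changes were, in the authors' deposited tables, 0.34 ± 1.67 with anti-CTLA-4, -1.08 ± 1.67 under anti-PD-1 DANA and -0.09 ± 1.67 with Combo, and none was called. With an error of this size, a log2 change of 5.34 or more was needed in the Combo table, so smaller changes of the SAP transcript would not have been called. The Combo value turned positive on library size (0.01), and no direction is given for it. Its reads per library could not be solved with the exon length used. Sh2d1a shares 1465 exon bases (26.6%) with Tenm1 on the other strand, and Tenm1 was at 0.0118 RPKM in isotype, its larger mean in all 3 tables.

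The treatments were then compared with one another, as differences of their log2 fold changes, over 3 pairs and 7 members. No member was called in any pair, where adjusted p under 0.05 called 0.908% of tested genes for Combo against anti-CTLA-4, 0.488% for Combo against anti-PD-1 DANA and 0% for the pair of single antibodies. The smallest p was for Slamf6, lower by estimate in Combo than in anti-PD-1 DANA. With errors implied by the authors' p-values, its difference was -2.41 ± 0.91 (95% interval -4.19 to -0.62, p = 0.00819, adjusted p = 0.553). On library size, with the same errors from the authors' tables, this difference was -3.11 (p = 0.000619, adjusted p = 0.0898). For Slamf6 in Combo minus anti-CTLA-4 it was -1.39 (95% interval -3.17 to 0.39), and for anti-CTLA-4 less the anti-PD-1 DANA value -1.02 (95% interval -2.80 to 0.77). The call of Slamf6 with Combo is thus not shown to be particular to Combo. For Slamf1 the Combo minus anti-CTLA-4 difference was -2.82 ± 1.83 (95% interval -6.42 to 0.77). The intervals of Cd48 were the shortest, from -1.66 to 1.59 for Combo minus anti-CTLA-4, and still allow changes of over 1 on the log2 scale.

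**Figure D4:**
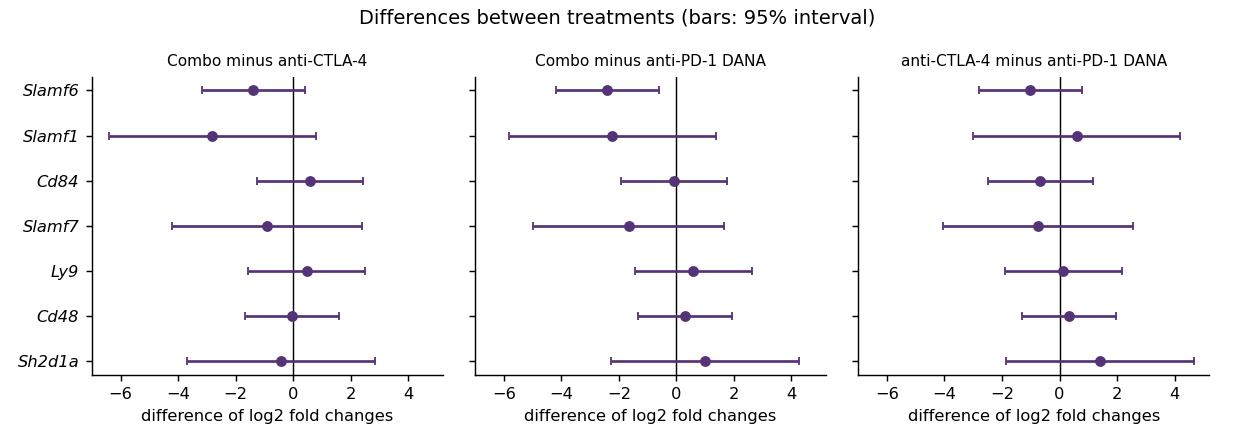
Difference of log2 fold changes between each pair of treatments (x axis) for each member, with bars for the 95% interval. The interval of Slamf6 for Combo minus anti-PD-1 DANA ends at -0.62, and its adjusted p of 0.553 is not a call.

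Of the other genes of the family, few were detected. Slamf9 and the SAP-related adaptor genes Sh2d1b1 and Sh2d1b2 were listed at 0 in all 3 of the authors' deposited tables. Of 7 further family genes on the list, 6 are listed and 3 were tested, and none was called in any comparison. Cd2, the T cell adhesion receptor, had at most 93.2 RPKM in isotype and log2 fold changes of -0.54, -0.31 and -0.73 in the authors' deposited tables. Cd244, the receptor for Cd48, had 1.66 RPKM with anti-PD-1 DANA, with a log2 fold change in the authors' deposited table of 10.03 ± 3.16 (p = 0.00152, false discovery rate 0.0762). On library size its adjusted p was 0.0332. Its reads in the 3 anti-PD-1 DANA libraries were 1, 2 and 772, so 99.5% of the level came from 1 library, and 3 reads in all were found in each of the anti-CTLA-4 and Combo arms.

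Among 16 genes of SLAM and SAP signalling, all tested, 1 was called lower with Combo and none was called with either single antibody. Over all tested genes 7.53% were called with Combo, 4.23% with anti-CTLA-4 and 3.75% with anti-PD-1 DANA. The 1 call among 16 genes is thus not above the share over all genes. Ptpn6, which encodes the phosphatase SHP-1, was lower in Combo, with a log2 fold change of -1.65 ± 0.46 in the authors' deposited table (false discovery rate 0.0211) from 109 RPKM in isotype. On library size, again with the authors' errors, it was -1.55 (adjusted p = 0.0369). With anti-CTLA-4 the smallest p was for Fyn, the kinase that SAP recruits, at -2.49 ± 0.81 in the authors' deposited table (p = 0.00211, false discovery rate 0.0877) from 26.2 RPKM. With anti-PD-1 DANA it was for Dok2, an adaptor of inhibitory signalling, at -2.92 ± 0.98 (false discovery rate 0.107) from 49.0 RPKM. The estimate was below 0 for 13, 14 and 14 of the 16 genes (anti-CTLA-4 first, Combo last) on the authors' scale, and for 6, 9 and 14 on library size. The medians were -0.80, -1.07 and -1.08 on the authors' scale and 0.15, -0.26 and -0.97 on library size, so no direction is given for the list with the single antibodies.

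**Figure D5:**
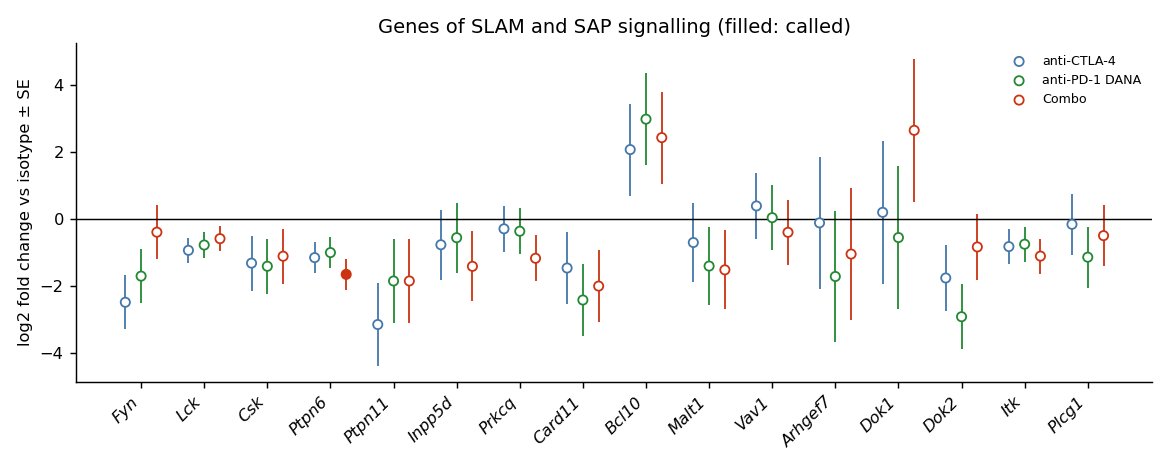
Log2 fold change against isotype (y axis) of 16 genes of SLAM and SAP signalling in the 3 deposited tables, with bars for the implied SE and filled points for calls. The filled point is Ptpn6 with Combo, at -1.65.

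Slamf6 is commonly read together with stem-like and memory genes, of which 13 of 13 were tested. Tcf7, the transcription factor that defines stem-like cells, had a log2 fold change of 0.03 ± 0.52 with Combo in the authors' deposited table and was not called. With anti-CTLA-4 the call was Klf2, a regulator of T cell trafficking, at -3.14 ± 0.69 (false discovery rate 0.00344) from 92.1 RPKM, while with anti-PD-1 DANA none was called and Klf2 had the smallest p (-1.95, false discovery rate 0.137). The list's medians were -0.88, -0.67 and -0.73 on the authors' scale, beside -0.62, -0.45 and -0.42 over all tested genes. On library size they were 0.06, 0.14 and -0.62, and the number of the 13 genes below 0 went from 12, 11 and 11 to 5, 6 and 11. No direction is therefore given for this list with the single antibodies.

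Of 15 genes of terminal effector and exhausted CD8 T cells, 2 were called higher with Combo, beside 3.94% of all tested genes. In the authors' deposited table Tbx21, the transcription factor T-bet, was at 6.97 (false discovery rate 0.00162) and Prf1, the pore-forming protein perforin, at 5.34 (false discovery rate 0.00695). Both were also called higher with anti-CTLA-4 (7.27 and 5.57) and with anti-PD-1 DANA (6.65 and 7.07) in the authors' deposited tables. Gzmb, a cytotoxic granule protease, was called higher with anti-PD-1 DANA (7.82), and Lag3, an inhibitory receptor, was called lower with anti-CTLA-4 (-8.20). Over all tested genes 2.74% were called higher and 1.49% lower with anti-CTLA-4, and 2.43% higher with anti-PD-1 DANA. The larger means in the Combo comparison were 7.90 RPKM for Tbx21 and 6.09 RPKM for Prf1. Whether 1 library carried the means of the called genes was not tested. The list's medians were -0.27, 1.2 and 2.30 on the authors' scale and 0.67, 2.02 and 2.41 on library size, so the sign with anti-CTLA-4 depends on the scale. The middle gene was Klrg1 with anti-PD-1 DANA (larger mean 0.0097 RPKM) and Entpd1 with Combo (larger mean 0.0043 RPKM). Both levels are close to 0, so no direction is given for the list from these medians. On library size Prdm1 and Havcr2 were also called higher with anti-PD-1 DANA, at adjusted values of 0.0224 and 0.0460. Library size raises every value with this antibody by 0.82 at an unchanged error, so these added calls have no share over all genes to be read against. All calls of this list share the isotype libraries with that of Slamf6.

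The labelled cell type was checked against markers. All 8 CD8 T cell markers were tested and none was called, with larger means of 138, 147 and 81.8 RPKM for Cd8a and of 422, 413 and 345 RPKM for Cd8b1 in the 3 tables of the authors. Their smallest p-values belonged to Trbc2 with anti-CTLA-4 (-0.75, false discovery rate 0.548) and to Cd3e with Combo (-0.96, false discovery rate 0.648) in the authors' deposited tables; with anti-PD-1 DANA it was Cd3e (-0.79). B cells, macrophages and dendritic cells also express several SLAM receptors, and calls among their markers went in both directions. Of 12 B cell markers 3 rose with anti-CTLA-4 (Ms4a1, Spib and Fcer2a), 1 fell with anti-PD-1 DANA (Blnk), and with Combo 1 rose (Fcer2a) and 2 fell (Cd22 at -6.38 and Blnk at -8.06). The B cell list's medians (Combo last) were 1.21, -0.71 and -0.13 on the authors' scale and 2.16, 0.10 and -0.02 on library size. On the authors' scale 4, 7 and 7 of the 12 markers were below 0. The isotype means of the 12 markers summed to at most 226 RPKM, with single genes at most 0.0344 to 134 RPKM (Cd79a at most 26.3). The sums of the larger means were 464 RPKM in the anti-CTLA-4 table, 295 with anti-PD-1 DANA and 258 with Combo. A sum of larger means cannot lie below the isotype bound, so these sums do not show a rise of B cell markers. Of 12 tested macrophage and dendritic cell markers, 3 fell with anti-CTLA-4 (C1qa, Mpeg1 and Fcgr3), but 7 of the 12 were above 0 and the list's median was 0.55. In that table of the authors C1qb was at 9.92 and C1qc at 10.33 (false discovery rates 0.106 and 0.0597), Flt3 at 7.03 and Cd68 at 5.33, none of them called. On library size C1qb, C1qc and Flt3 were called higher (adjusted values 0.0432, 0.0207 and 0.0389) and the call of Fcgr3 was lost (0.0565). With anti-PD-1 DANA 1 rose (Csf1r) and 1 fell (Fcgr3), and with Combo 2 fell (Lyz2 at -4.26 and Fcgr3 at -7.63). On library size Xcr1 with anti-PD-1 DANA, and the B cell gene Fcer2a with the same antibody, were also called higher (0.0322 and 0.0173). The isotype means of the macrophage and dendritic cell list summed to at most 67.3 RPKM, and Adgre1 was listed at 0 in all tables. Cd22, Blnk, Mpeg1 and Fcgr3, all called lower above, had 3.85, 3.75, 2.48 and 3.76 RPKM in isotype. Whether 1 isotype library carried these means was not tested. The part of B cells, macrophages and dendritic cells in the value of Slamf6 with Combo was not tested.

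Of the other marker lists, natural killer and innate-like T cells had 5 tested genes and no call, with Ncr1 listed at 0. The smallest p-values there were for Klra1 with anti-CTLA-4 (6.47, false discovery rate 0.146) and for Klra7 with anti-PD-1 DANA (6.04, false discovery rate 0.159) and Combo (1.70) in the authors' deposited tables. On library size Klra1 was called with anti-CTLA-4 (0.0489). Cd4 was called higher with anti-CTLA-4 (8.23) among 6 CD4 and regulatory T cell genes. Its mean was 2.48 RPKM with anti-CTLA-4 and at most 0.0053 RPKM in isotype, and whether 1 library carried it was not tested. In the other comparisons the smallest p was for Cd40lg (8.74 with anti-PD-1 DANA at 2.72 RPKM, false discovery rate 0.196) and Il2ra (7.66 with Combo at 0.18 RPKM, false discovery rate 0.283) in the authors' deposited tables. Of 4 platelet genes 1, Itga2b, was tested and not called (1.55, -8.72 and -6.46 in the authors' deposited tables), and Pf4, Ppbp and Gp9 were listed at 0.

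The 6 receptor genes lie within 364.55 kb of chromosome 1 (GRCm38). Of 18 genes listed in that interval 12 are not members, and 8 of those were listed at 0 in all 3 tables. The 3 tested neighbours (Gm37787, Gm10521 and Gm37065) were not called in any comparison. The smallest p was for Gm10521 with anti-CTLA-4 (3.95, false discovery rate 0.761) and anti-PD-1 DANA (4.68, false discovery rate 0.455), and for Gm37787 with Combo (4.68, false discovery rate 0.485), in the authors' deposited tables. The members of this cluster thus did not share 1 sign: Ly9 at 1 end had positive estimates and Slamf6 at the other had negative ones.

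By the 3 log2 fold changes, the genes most like Slamf6 among 11018 compared were Mrpl22, Dynlt1f, Gm11712, Bub3 and Hgsnat. Their root mean square differences from Slamf6 over the 3 comparisons were 0.0930, 0.106, 0.114, 0.153 and 0.156 on the log2 scale. Of these Bub3, a mitotic checkpoint protein, was called with Combo (-3.48 in the authors' deposited table, false discovery rate 0.0417), and the other four were not called in any comparison.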

How the data were processed

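The deposited tables compare each treatment with isotype, 1 table per treatment. Per the labels' protocols, the authors aligned and quantified reads with CLC Genomics Workbench, and the build in the submitters' processing notes is GRCm38.p5; which version, annotation and model they used is not given in the sources used here. Each table gives, as deposited, the larger group mean (RPKM), a log2 fold change, the signed fold change (a score below 0 for a fall), the p-value, its Benjamini-Hochberg adjustment over all 48709 listed genes and a Bonferroni value.

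Computed here (Python with numpy 2.4.6, scipy 1.17.1 and pandas 2.3.3): the SE, by dividing the size of the log2 change by the normal quantile for its p, which assumes a Wald test; and differences between treatments, with errors from equal variances of group means, normal quantile and Benjamini-Hochberg over all listed genes. Library sizes, 14729713 to 42556869 reads, were recovered from the lowest RPKM steps (1 read in 1 library), and reads per library from group means with exon lengths of GENCODE M21, available for 99.26% of genes. Depth per replicate number is unknown, and PCR reads are not independent molecules. The labels' depth per library is close to the number of genes listed and far below these sizes. The size of the shift between the authors' scale and library size was the median over 418, 229 and 177 genes whose treated and isotype means are both known.

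Members and lists were chosen with earlier results of these data known. Named genes are all members, the called genes of each list or the one with the smallest p, and the 5 genes most like a called member. Some results for genes on the lists are not reported here. Scripts were tested on simulated data. The simulated reads per library were fewer than the larger read numbers solved here, so the recovery was not tested by simulation at those numbers.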

Additional observations from a re-analysis of the deposited data

How the results depend on the processing

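The Combo count of 1 called member fell to 0 with a Bonferroni correction and to 0 when genes were centred by level. It stayed at 1 when adjusted over tested genes, with a larger mean of at least 1 or 5 RPKM, centred on the median, and on library size, and the counts of the other comparisons stayed at 0 in every setting run. Signs turned for values that were not called. With anti-CTLA-4, Cd48 was at 0.45 centred on the median, 0.57 centred by level and 0.78 on library size. With anti-PD-1 DANA, Slamf6 was at 0.098 by level, Slamf7 at 0.16 by median and 0.52 on library size, and Cd48 at 0.024 by level and 0.31 on library size. With Combo, Cd48 was at 0.22 by median and 0.10 by level, and Sh2d1a at 0.33 by median, 0.042 by level and 0.013 on library size. Library-size scaling of the differences, chosen after seeing the data, turned Ly9 (-0.38) and Cd84 (-0.26) in Combo minus anti-CTLA-4, and Ly9 (-0.12) and Cd48 (-0.41) in Combo minus anti-PD-1 DANA. The cause was not tested beyond the scaling itself. Leaving out each replicate was not run, since the tables used here hold no value per library. No paired analysis was possible because these tables hold comparisons and no column per replicate. The members' errors limit detection, from a log2 change of 2.65 (Cd48, Combo) to 6.23 (Slamf1, anti-PD-1 DANA).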
